A study of Mus musculus with 20 samples.

Results

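The core circadian clock genes and the genes the clock drives most directly were described in the livers of 4 mouse strains. The set held Arntl, Npas2, Per1, Per2, Per3, Nr1d1, Nr1d2, Dbp, Bhlhe40 and Bhlhe41. The set was named with earlier results of these data known, and its probe sets were found by gene symbol. Of these 10 genes, 9 were measured, each by 1 probe set, among 19938 genes on the array. All 9 passed the filter on dim values, which 14190 genes passed. No value of Npas2 was analysed here.

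Liver RNA came from 20 male mice, 5 of each strain, with 1 array per animal. The strains were NZO/Hl (NZO below), an obese and diabetes-prone mouse, and the 3 comparators C57/Bl6 (B6), C3H (from the Jackson Lab) and 129P2/OlaHsd (129P2). From weaning, at 21 days, to 6 weeks of age all mice were fed a diet in which fat supplied 45% of the energy. The labels name no engineered allele and no agent given, and no low-fat group was analysed here. The hour of collection was not given in the sources used here, so strain and hour of collection cannot be told apart. Levels are log2 values, on which 1 unit is a 2-fold change. The labels do not say whether littermates were used, so the p-values measure the spread between these animals only.

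The circadian clock of a cell is a loop in which transcription factors drive the genes of their own inhibitors. BMAL1, the product of Arntl, pairs with CLOCK or NPAS2 at E-box sequences and activates the Per, Nr1d and Bhlhe genes and Dbp. The PER proteins then inhibit that pair, and the REV-ERB proteins made from Nr1d1 and Nr1d2 repress Arntl. DBP acts on genes with a D-box sequence. In mouse liver Arntl RNA is known to be high when Nr1d1 and Dbp RNA are low, and Nr1d1 and Dbp peak earlier in the day than Per1 and Per2.

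Sequence letters known from this loop were looked for in the promoters. RefSeq promoters (GRCm38.p6) were at hand for 8 of the 10 genes, in 10 windows from 250 bases before to 50 bases after a transcription start. Both strands were searched for the E-box CACGTG, the E-box variant CACGTT, the D-box TTANGTAA and AGGTCA, the core of the element that REV-ERB and ROR proteins bind. The 250 bases before the start are printed 5′ to 3′ on the gene's strand with matches in capitals. Per3 and Bhlhe41 are shown because they moved against Arntl and with Dbp. Nr1d1 is shown because it was lower in NZO than in B6 and C3H, and Per1 as a second E-box gene whose values went with Per2. The windows are Per3 at chr4:151044666-151044915 (minus strand), Bhlhe41 at chr6:145865421-145865670 (minus strand), Nr1d1 at chr11:98775378-98775627 (minus strand) and Per1, first window, at chr11:69098699-69098948 (plus strand).
Per3: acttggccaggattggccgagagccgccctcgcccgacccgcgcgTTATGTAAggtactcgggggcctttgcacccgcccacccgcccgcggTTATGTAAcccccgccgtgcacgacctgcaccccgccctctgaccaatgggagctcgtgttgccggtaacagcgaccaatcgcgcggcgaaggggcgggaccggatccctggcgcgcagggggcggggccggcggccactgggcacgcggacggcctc
Bhlhe41: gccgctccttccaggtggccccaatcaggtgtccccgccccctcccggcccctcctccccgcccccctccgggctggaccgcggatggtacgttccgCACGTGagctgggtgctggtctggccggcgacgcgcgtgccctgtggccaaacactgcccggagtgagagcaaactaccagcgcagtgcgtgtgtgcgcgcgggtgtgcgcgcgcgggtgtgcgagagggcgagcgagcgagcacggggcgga
Nr1d1: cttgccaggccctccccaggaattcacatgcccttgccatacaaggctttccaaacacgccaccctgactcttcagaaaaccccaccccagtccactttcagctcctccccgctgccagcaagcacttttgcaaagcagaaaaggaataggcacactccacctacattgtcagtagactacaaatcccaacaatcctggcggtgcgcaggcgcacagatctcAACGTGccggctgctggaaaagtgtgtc
Per1: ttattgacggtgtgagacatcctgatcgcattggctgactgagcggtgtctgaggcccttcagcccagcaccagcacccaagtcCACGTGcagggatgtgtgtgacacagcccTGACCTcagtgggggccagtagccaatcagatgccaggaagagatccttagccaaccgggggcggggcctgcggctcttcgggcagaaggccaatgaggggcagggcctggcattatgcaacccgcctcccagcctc
Per3 held 2 D-boxes, whereas 2.32% of all 32851 promoter windows of 300 bases held any. Bhlhe41 and Per1 each held an E-box, found in 7.15% of windows. Nr1d1 held the E-box variant on the opposite strand, found in 4.69% of windows. AGGTCA, found in 16.3% of windows, was in the Per1 window (on the opposite strand), the Nr1d2 window and the second Arntl window. The Dbp window, the first Arntl window, the second Per1 window and the Npas2 window held no match. No matches overlapped. A match is a stretch of letters and not a measured binding site.

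The defining markers of hepatocytes were present in all livers, with a mean over 5 markers between 13.80 and 14.00 in all 20 animals. Levels this high on the array could show little change; 0 of 5 passed limma's F-test, with 3 at an unadjusted p under 0.05. Markers of other cells differed between strains: of 5 endothelial markers 3 were lower in NZO than in B6, 3 than in C3H and 2 than in 129P2, and of 5 stellate cell markers 3, 2 and 3, where limma called 10.3%, 6.6% and 8.9% of all tested genes. Both tested erythroid markers were higher in NZO than in B6 (Alas2 by 0.58, Slc4a1 by 0.24), as was S100a9 of the neutrophil list (by 0.39), and Alas2 was also higher than in 129P2 (by 0.59). Of 5 Kupffer cell and macrophage markers only Clec4f passed in the NZO comparisons, lower than in B6 (log2 difference -0.69) and 129P2 (-0.59). Against C3H 0 of 5 passed. Marco, which did not pass, had a higher mean in NZO (7.59) than in 129P2 (7.19). The endothelial mean ran from 8.25 to 8.68 in NZO and from 8.65 to 9.15 in B6, and the stellate mean from 8.40 to 8.73 and from 8.70 to 9.38. In whole liver, fewer cells of a type and less RNA per cell cannot be told apart, and the part of these cells in the strain differences below was not tested. The neutrophil genes Ly6g, Retnlg and S100a8 and the B cell genes Cd79a and Ms4a1 lay below the 40th percentile of the array in every animal. Array spread, the interquartile range of an array, ran from 2.17 to 2.50. Its correlation with the 9 clock genes within strains lay between -0.34 and 0.33, with 0 of 9 past an adjusted permutation p of 0.05.

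Comparison of the strains asked which clock genes sat at different levels in NZO liver. NZO liver had less Nr1d1 RNA than B6 and C3H liver, more Arntl RNA than C3H liver, and less Bhlhe41 RNA than C3H and 129P2 liver. In the main limma fit, Dbp, the Per genes, Nr1d2 and Bhlhe40 passed no test between any 2 strains. Among B6, C3H and 129P2 no clock gene passed. A gene was called where limma gave an adjusted p (Benjamini-Hochberg over 14190 genes) under 0.05.

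**Figure D1:**
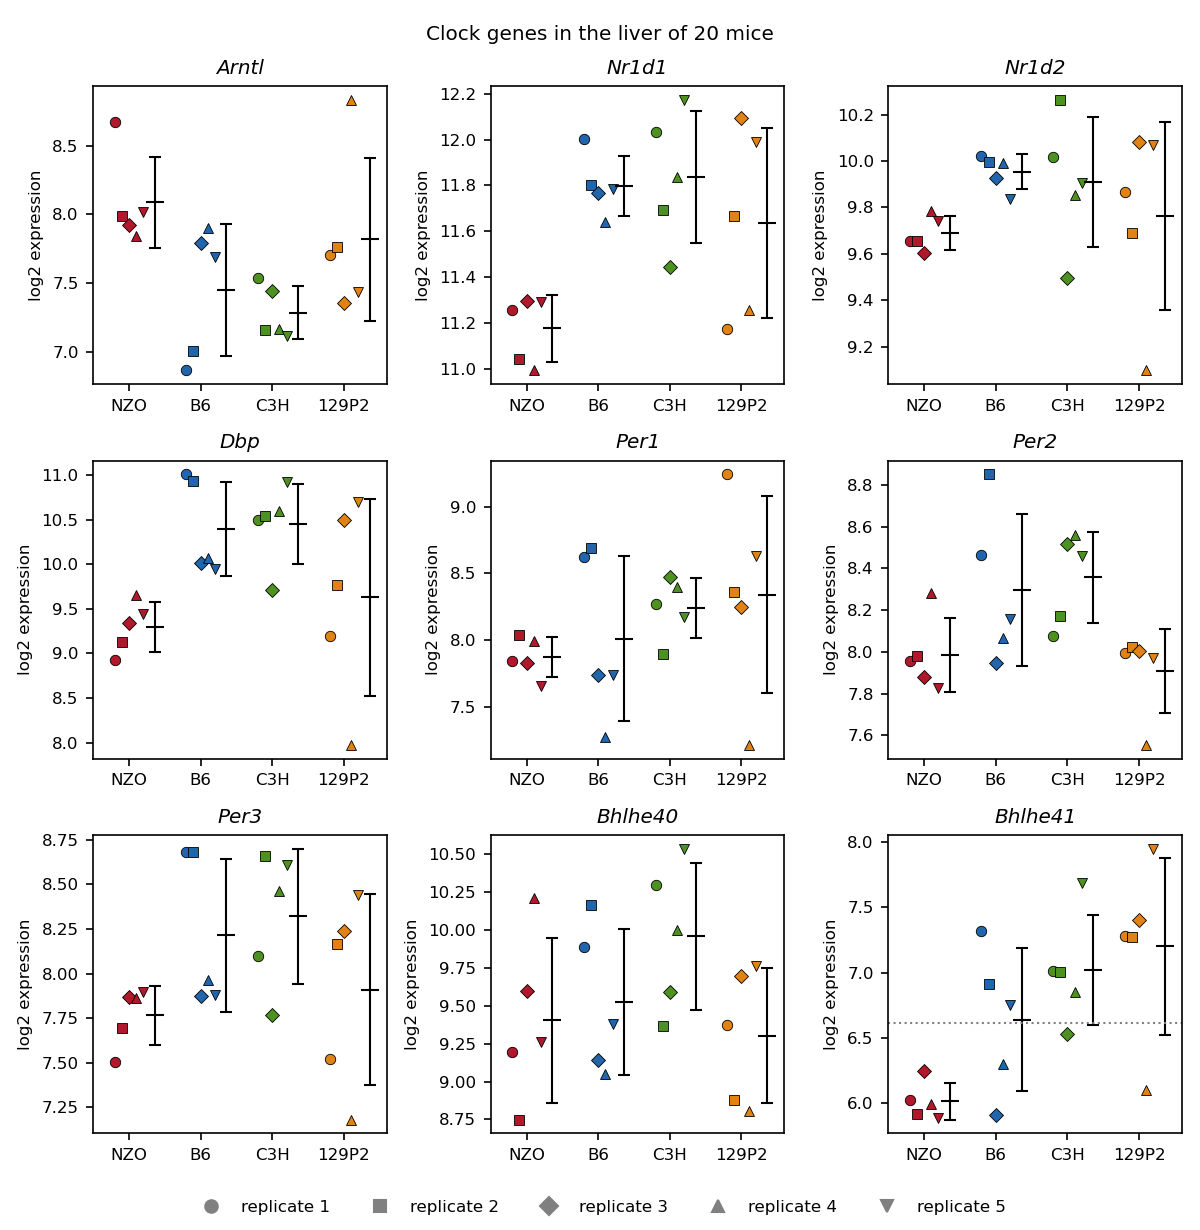
Log2 level of the 9 measured clock genes (vertical axes) in each of 20 animals, by strain (horizontal axis), with the mean and SD of 5 animals per strain; the dotted line on the Bhlhe41 panel is the mean 40th percentile of the arrays. The NZO animals sit between 10.99 and 11.30 for Nr1d1, below every B6 and C3H animal, and under the dotted line for Bhlhe41.

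Arntl, the activator, read 8.67, 7.99, 7.93, 7.84 and 8.02 in the 5 NZO animals. In C3H it read 7.54, 7.16, 7.44, 7.17 and 7.11. Every NZO animal lay above every C3H animal, and the C3H animals were close together apart from replicates 1 and 3. B6 read 6.86, 7.00, 7.80, 7.90 and 7.69, and 129P2 read 7.70, 7.77, 7.35, 8.83 and 7.44. B6 thus held 2 animals below the whole C3H range, and 129P2 held the highest animal of all. Arntl was higher in NZO than in C3H by 0.80 ± 0.23 (SE, n = 5 and 5), or 1.75-fold, with a limma adjusted p of 0.0373. This call rested on single animals: without NZO replicate 1 the difference was 0.66, with a limma adjusted p of 0.12, and it was also lost without NZO replicates 2, 3 or 5 or C3H replicates 2, 4 or 5. It was called in 20 of 31 alternatives. Against B6 the difference was 0.64 ± 0.23 with a limma adjusted p of 0.0846 (0.026 without 129P2 replicate 4), and against 129P2 0.27 ± 0.23 with 0.599. In order of means, NZO (8.09 ± 0.33, SD, n = 5) stood above 129P2 (7.82 ± 0.59), B6 (7.45 ± 0.48) and C3H (7.28 ± 0.19), and no neighbours in that order differed past the threshold.

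Nr1d1, which encodes the repressor REV-ERB alpha, read 11.26, 11.05, 11.30, 10.99 and 11.29 in NZO. In B6 it read 12.00, 11.80, 11.77, 11.64 and 11.78. In C3H it read 12.03, 11.69, 11.44, 11.84 and 12.17. No NZO animal reached the lowest animal of B6 or C3H. In 129P2 the values were 11.18, 11.67, 12.09, 11.26 and 11.99, so that replicates 1 and 4 lay within the NZO range. Nr1d1 was lower in NZO than in B6 by a log2 difference of -0.62 ± 0.15 (SE, n = 5 and 5), or 1.54-fold, with a limma adjusted p of 0.0102. The difference from C3H was -0.66 ± 0.15, or 1.58-fold, with a limma adjusted p of 0.00791. The difference from 129P2, -0.46 ± 0.15, missed the threshold with a limma adjusted p of 0.0677, and passed it without 129P2 replicate 1 (0.0168), 129P2 replicate 4 (0.0276) or C3H replicate 3 (0.0498).

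Nr1d2, which encodes REV-ERB beta, spanned less. NZO read 9.66, 9.65, 9.61, 9.78 and 9.74, and B6 read 10.02, 9.99, 9.93, 9.99 and 9.83. These strains did not overlap, yet their difference of -0.26 ± 0.15 had a limma adjusted p of 0.261. With only the compared strains in the limma fit, it was 0.0302. C3H ran from 9.49 to 10.26 and 129P2 from 9.10 to 10.08, each around the NZO values.

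Dbp, the output factor that acts through D-boxes, varied most. It read 8.92, 9.13, 9.35, 9.65 and 9.44 in NZO. It read 11.01, 10.93, 10.01, 10.07 and 9.95 in B6 and 10.49, 10.54, 9.72, 10.60 and 10.93 in C3H. All NZO animals lay below all B6 and all C3H animals. In 129P2 the values 9.20, 9.77, 10.50, 7.97 and 10.70 spanned from below the lowest NZO animal to within the B6 and C3H ranges. The NZO difference was -1.10 ± 0.36 from B6 and -1.16 ± 0.36 from C3H, with limma adjusted p-values of 0.0541 and 0.0569. The 4 strains share 1 estimate of the spread, and the SD of Dbp was 1.10 in 129P2 against 0.28 in NZO. Both differences passed without 129P2 replicates 3, 4 or 5 or C3H replicate 3. Without 129P2 replicate 4 the limma adjusted p-values were 0.00962 and 0.00781, and with only the compared strains in the limma fit 0.00527 and 0.000987.

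The 3 period genes encode the PER inhibitors. Per1 read 7.84, 8.04, 7.83, 7.99 and 7.66 in NZO, 8.62, 8.69, 7.74, 7.27 and 7.74 in B6, 8.27, 7.90, 8.47, 8.40 and 8.17 in C3H, and 9.25, 8.36, 8.25, 7.21 and 8.63 in 129P2. The strains overlapped, with a range of over 2 units inside 129P2 alone and the narrowest range in NZO. Per2 read 7.95, 7.98, 7.88, 8.28 and 7.83 in NZO, 8.47, 8.85, 7.95, 8.07 and 8.16 in B6, 8.08, 8.17, 8.52, 8.56 and 8.46 in C3H, and 7.99, 8.02, 8.00, 7.55 and 7.97 in 129P2. Every C3H animal lay above every 129P2 animal for Per2, by 0.45 ± 0.14 on average, with a limma adjusted p of 0.0731 (0.0261 without B6 replicate 2 and 0.0468 without C3H replicate 1). Per3 read 7.51, 7.70, 7.87, 7.86 and 7.90 in NZO, 8.68, 8.68, 7.87, 7.96 and 7.88 in B6, 8.10, 8.66, 7.77, 8.46 and 8.61 in C3H, and 7.52, 8.16, 8.24, 7.18 and 8.44 in 129P2. Per3 was low in the NZO and 129P2 animals with the least Dbp and high in B6 replicates 1 and 2, which had the most. Its difference between NZO and C3H, -0.55 ± 0.22, had a limma adjusted p of 0.168. With only the compared strains in the limma fit, the adjusted p for this difference was 0.0357.

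Bhlhe40 and Bhlhe41 encode DEC1 and DEC2, repressors that bind the E-box. Bhlhe40 overlapped in all strains, from 8.75 to 10.21 in NZO, 9.05 to 10.17 in B6, 9.37 to 10.54 in C3H and 8.81 to 9.76 in 129P2. Bhlhe41 read 6.02, 5.92, 6.24, 5.99 and 5.89 in NZO. It read 7.32, 6.91, 5.91, 6.30 and 6.75 in B6, 7.01, 7.00, 6.53, 6.85 and 7.69 in C3H, and 7.28, 7.27, 7.41, 6.10 and 7.95 in 129P2. All 5 NZO animals lay below the 40th percentile of their arrays (mean 6.62), as did 2 B6, 1 C3H and 1 129P2 animal. The NZO level is therefore a bound. The measured means were 6.01 ± 0.14 (SD, n = 5) in NZO, 7.02 ± 0.42 in C3H and 7.20 ± 0.68 in 129P2, and against the percentile Bhlhe41 was at least 1.31-fold higher in C3H and at least 1.49-fold higher in 129P2. The limma adjusted p was 0.0206 against C3H and 0.00467 against 129P2. The C3H call was lost without C3H replicate 5 (limma adjusted p 0.0788) or NZO replicate 5 (0.0505).

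Counted together, 3 of 9 clock genes (Nr1d1, Dbp and Bhlhe41) differed over the 4 strains by limma's F-test, against 17% of all tested genes. NZO and B6 differed in 1 of 9, against 10.3%, NZO and C3H in 3 of 9, against 6.6%, and NZO and 129P2 in 1 of 9, against 8.9%. The first and last of these pairwise shares are close to those of all genes. C3H and B6, 129P2 and B6, and C3H and 129P2 differed in 0 of 9 by limma, with 0, 3 and 4 genes at an unadjusted p under 0.05, against 8.05%, 6.19% and 5.03% of all genes called. Single animals moved these counts. Without 129P2 replicate 4 they were 3 of 9 for NZO and B6, 3 of 9 for NZO and 129P2 and 1 of 9 for 129P2 and B6. NZO and B6 differed in 2 of 9 without C3H replicate 3 or 129P2 replicates 3 or 5, and NZO and 129P2 in 2 of 9 without C3H replicate 3 or 129P2 replicate 1. NZO and C3H differed in 1 of 9 without C3H replicate 5 or NZO replicate 5, C3H and 129P2 in 1 of 9 without B6 replicate 2 or C3H replicate 1, and the F-test called 5 of 9 without B6 replicate 3. The values of NZO and B6 did not overlap for 3 of 9 genes, against 9.32% of all, and those of NZO and C3H for 4 of 9, against 6.72%. They did not overlap between C3H and 129P2 for 1 of 9 (Per2), against 5.4% of all genes. For NZO and 129P2, C3H and B6, and 129P2 and B6 the count was 0 of 9, against 7.95%, 8.81% and 7.41%. The median difference of the 9 genes was -0.31 from B6, -0.55 from C3H and -0.14 from 129P2, where all tested genes had medians of 0.01, -0.00 and 0.01. The 3 NZO comparisons share the NZO animals.

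**Figure D2:**
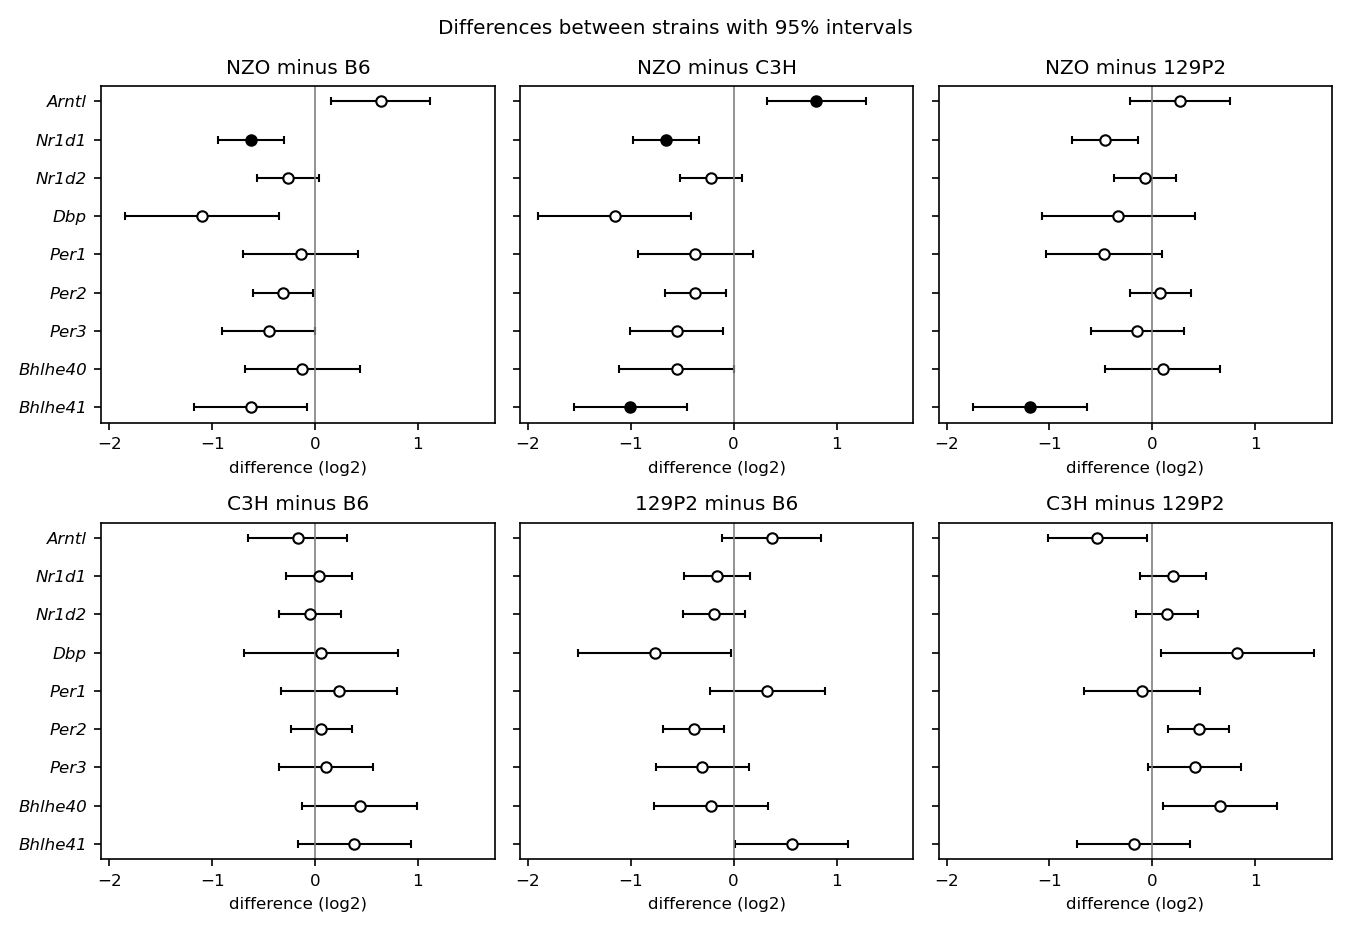
Log2 difference between 2 strains (horizontal axis) for the 9 measured clock genes (vertical axis) in 6 pairwise comparisons, with 95% confidence intervals from limma; filled points are called. Nr1d1 is called in NZO minus B6 and NZO minus C3H, Arntl and Bhlhe41 in NZO minus C3H, and Bhlhe41 in NZO minus 129P2.

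Most clock genes opposed Arntl from animal to animal inside a strain, with exceptions. Their spread within strains was wide: the SD pooled over strains was 0.67 for Dbp, 0.50 for Per1, 0.49 for Bhlhe40 and Bhlhe41, 0.43 for Arntl, 0.40 for Per3, 0.27 for Nr1d1 and 0.25 for Nr1d2 and Per2. The median over all tested genes was 0.15 and their 90th percentile 0.23, so that all 9 clock genes lay above the 90th percentile. Among genes of like level, Nr1d1 (percentile 85.4) and Nr1d2 (88.0) lay below the 90th. Clock, the partner of Arntl, had an SD of 0.17, and Csnk1d, a kinase that acts on PER proteins, had 0.11. Other clock genes were as wide as some of the 9, such as Ciart at 0.42 and Nfil3 and Tef at 0.28.

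In B6, replicates 1 and 2 had the lowest Arntl and were the top 2 animals for all 8 other genes. In 129P2, replicate 4 had the highest Arntl and the lowest level of 7 of 8 other genes. The exception was Nr1d1, lowest in replicate 1 at 11.18. That animal also had low Dbp (9.20) and Per3 (7.52) but the highest Per1 of all 20 animals (9.25). C3H replicate 3 was of the same kind: it was lowest in its strain for Nr1d1, Nr1d2, Dbp, Per3 and Bhlhe41 and highest for Per1 (8.47), with Per2 at 8.52. That array also had the narrowest spread of all. C3H replicate 1 went against the pattern: it had the highest Arntl of its strain, yet was among the top 2 animals for 4 of 8 other genes and lowest for 1, Per2. In NZO the animals were close together for Nr1d1, Nr1d2, Per1, Per2 and Per3, with SDs of 0.07 to 0.18, and the highest Arntl, in replicate 1, stood beside the lowest Dbp and Per3.

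Arntl and the other clock genes were then set against each other over deviations from strain means in 20 animals, 36 pairs in all. All 8 pairs with Arntl had a negative Pearson r, and 7 passed a permutation p adjusted over the 36 pairs at 0.05. All 28 other pairs had a positive r, and 18 passed. With Spearman's rho as well, 5 of 8 and 11 of 28 passed by both measures. Whether a single pair passed thus depended on the measure. The 36 pairs share the same genes and animals, and the sign that they share was not tested.

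**Figure D3:**
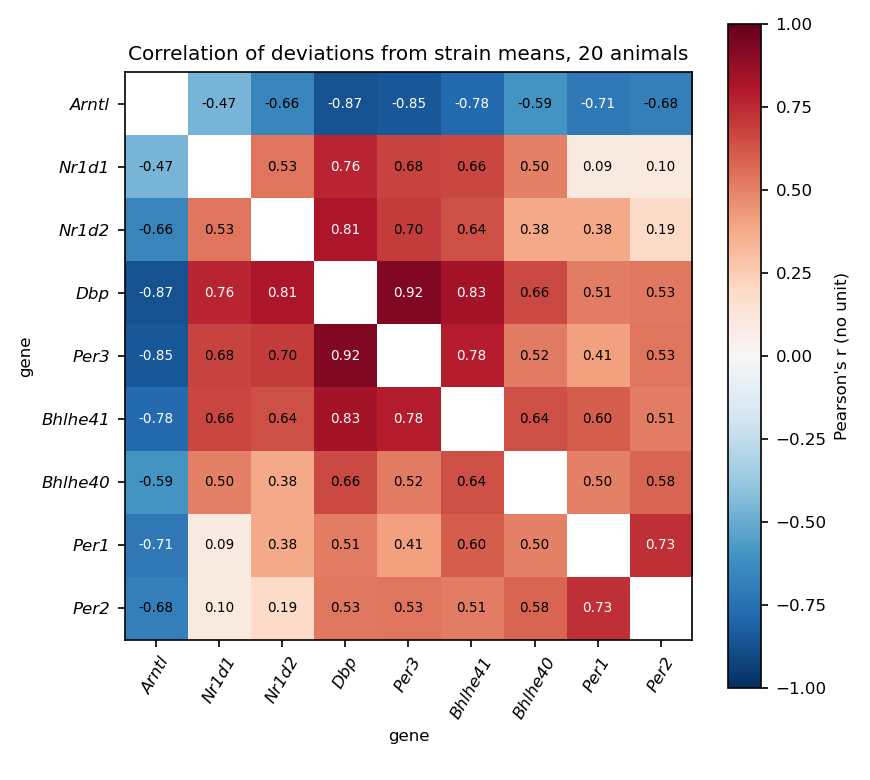
Pearson r of deviations from strain means over 20 animals for each pair of the 9 measured clock genes (both axes). The Arntl row and column are negative throughout, from -0.87 with Dbp to -0.47 with Nr1d1, and all other cells are positive, from 0.09 for Nr1d1 with Per1 to 0.92 for Dbp with Per3.

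Dbp and Per3 gave the closest pair, with r = 0.92 and rho = 0.94 and a permutation p of 1e-05, the smallest that the draws allow (adjusted 0.00036 for both). Without the 2 animals farthest from the median of Dbp, r was 0.91. Arntl and Dbp gave r = -0.87 and rho = -0.84 (permutation p adjusted to 0.00108 and 0.00378), and r = -0.80 without the 2 animals farthest in Arntl, 129P2 replicate 4 and NZO replicate 1. Arntl and Per3 gave r = -0.85 and rho = -0.81 (adjusted permutation p 0.00108 and 0.00456), and r = -0.81 without those animals. With array spread taken out, r was -0.90 for Arntl and Dbp and 0.93 for Dbp and Per3.

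**Figure D4:**
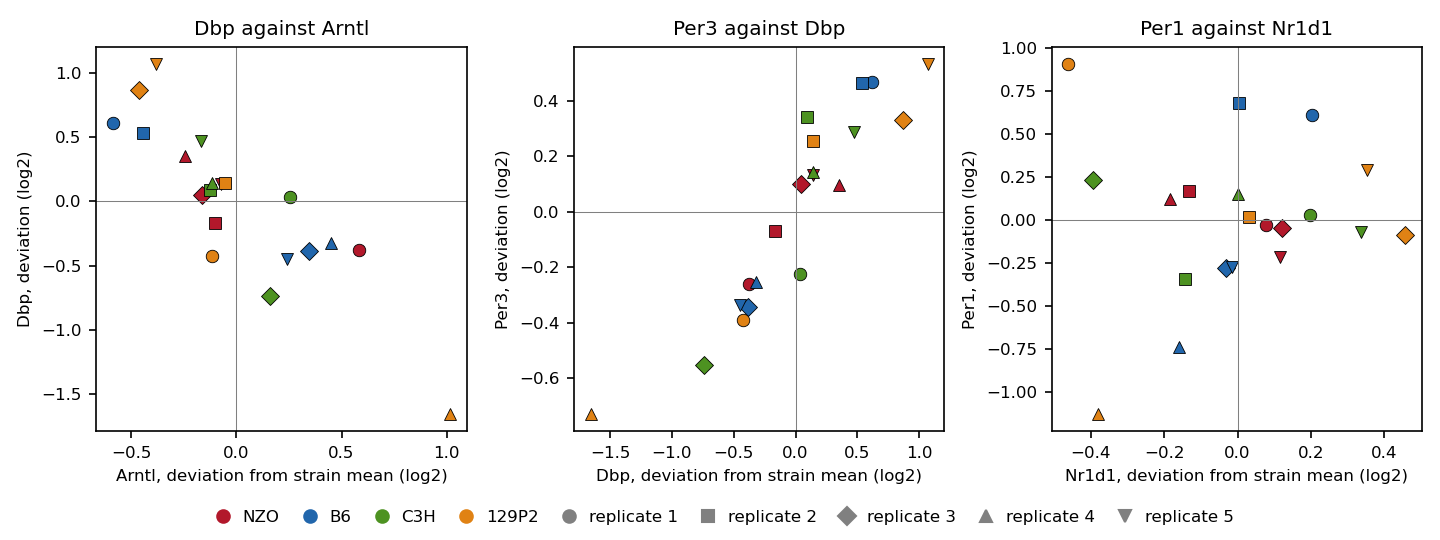
Deviations from strain means in log2 units of 20 animals, coloured by strain, for Dbp against Arntl, Per3 against Dbp and Per1 against Nr1d1. The first pair runs downward (r = -0.87), the second upward (r = 0.92), and the third is scattered (r = 0.09).

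The period genes were then set against each other and against the REV-ERB genes. Per1 and Per2 went with each other, with r = 0.73 and rho = 0.72 (adjusted permutation p 0.00576 and 0.0134), and r = 0.76 without the 2 farthest animals. With Nr1d1, Per1 gave r = 0.09 and rho = 0.07 and Per2 gave r = 0.10 and rho = 0.11, with adjusted permutation p-values of 0.823 and 0.704 for r. Without the 2 animals farthest in Nr1d1 these were r = 0.42 for Per1 and 0.12 for Per2, so the low value for Per1 rested on those animals. Per3 went with Nr1d1, at r = 0.68 and rho = 0.68 (adjusted permutation p 0.0237 and 0.0203), and 0.64 without the 2 farthest animals. Nr1d1 and Dbp gave r = 0.76 and rho = 0.71 (adjusted permutation p 0.00851 and 0.0169), and 0.75 without the 2 farthest. The difference between these correlations was not tested.

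Across all genes, few followed Arntl within strains as these did. A limma fit with strain means and a common slope on the Arntl level called 11 of 14189 genes, or 0.0775%, and 3 of 8 clock genes. Dbp changed by -1.36 ± 0.17 units (SE) per unit of Arntl (limma adjusted p 0.0014), Per3 by -0.79 ± 0.12 (0.00323) and Bhlhe41 by -0.89 ± 0.16 (0.0325). The slopes of Per1 (-0.83), Per2 (-0.40), Nr1d2 (-0.39), Bhlhe40 (-0.68) and Nr1d1 (-0.30) were negative too, each at an unadjusted p under 0.05 and a limma adjusted p of 0.11 to 0.845. These calls depended on 1 animal above all. Without 129P2 replicate 4, limma called 1 of 14160 genes, or 0.00706%, and 0 clock genes. All 8 clock gene slopes stayed negative, and 6 had an unadjusted p under 0.05. Dbp then had a slope of -1.14 with a limma adjusted p of 0.115, Per3 -0.85 with 0.0659 and Bhlhe41 -0.73 with 0.495. The Bhlhe41 call was also lost without B6 replicates 1, 2, 3 or 4, NZO replicate 3 or 129P2 replicate 5 (limma adjusted p 0.0523 to 0.133).

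With Dbp in place of Arntl, the limma fit called 5 of 14189 genes, or 0.0352%, and 3 of 8 clock genes. Per3 changed by 0.55 ± 0.06 units per unit of Dbp (limma adjusted p 4.48e-05), Arntl by -0.56 ± 0.07 (0.000685) and Bhlhe41 by 0.61 ± 0.09 (0.0046). The dim values of Bhlhe41 limit this slope as they do its slope on Arntl. Without 129P2 replicate 4 Per3 was still called, while Arntl (-0.51, limma adjusted p 0.144) and Bhlhe41 (0.56, 0.309) were not. Arntl and Dbp are used in each other's fit, so the fits are not independent of each other.

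With the Arntl level of each animal as a covariate, an alternative chosen after the data were seen, the strain differences changed. The Nr1d1 difference of NZO was -0.43 from B6 and -0.42 from C3H, with limma adjusted p-values of 0.105 and 0.274. For Bhlhe41 the limma adjusted p was 0.706 against C3H and 0.00127 against 129P2; the fitted differences, -0.29 and -0.95, are set against an NZO level under the 40th percentile and are not sizes of the change. Bhlhe41 was then higher in 129P2 than in B6, by 0.89 ± 0.19 with a limma adjusted p of 0.00354. The Dbp difference was -0.23 from B6 and -0.07 from C3H. Arntl itself differs between NZO and C3H, so this fit does not separate strain from Arntl level.

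Other genes of the clock were described from lists chosen beside the members. Of 13 other clock genes 11 were tested. Clock was higher in NZO, by 0.36 ± 0.11 against B6 (limma adjusted p 0.0382) and by 0.37 ± 0.11 against C3H (0.0388). Csnk1e, which encodes a kinase acting on PER proteins, was lower in NZO, with a log2 difference of -0.25 from B6 (limma adjusted p 0.032) and of -0.39 from 129P2 (0.00126). Ciart, a clock-driven repressor, was lower in NZO than in C3H by -0.85 (limma adjusted p 0.0237). Its 2 probe sets did not follow each other in 129P2 replicate 2, at 8.85 and 6.86. Tef, a relative of Dbp, followed both Arntl (-0.56 ± 0.09 per unit, limma adjusted p 0.00447) and Dbp (0.40 ± 0.04, 5.43e-05). The slopes on Arntl were 0.33 for Clock, 0.33 for Cry1, which encodes a partner of the PER proteins, and 0.44 for Nfil3, which encodes a repressor at D-boxes, with limma adjusted p-values of 0.133, 0.215 and 0.274.

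Of 12 rhythmic liver outputs 9 were tested. Gys2, the liver glycogen synthase, was lower in NZO than in every comparator, with log2 differences of -0.61 from B6, -0.55 from C3H and -0.46 from 129P2, and limma adjusted p-values of 0.00293, 0.00861 and 0.0261. Elovl3, a fatty acid elongase, was higher in NZO than in B6 by 1.08 ± 0.28 (limma adjusted p 0.0147). Usp2, a deubiquitinase, fell with Arntl by a slope of -0.75 ± 0.11 (limma adjusted p 0.00323), the only one of the 9 to pass. An unadjusted p under 0.05 was reached by 7 of the 9, among which Elovl3 rose with Arntl (slope 0.58). Here and elsewhere, the share of all genes at an unadjusted p under 0.05 was not counted, so such counts have no background beside them.

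Genes that respond to glucocorticoid, feeding or temperature were read beside the clock, and 11 of 12 were tested. NZO had less RNA than B6 of Igfbp1, an insulin-repressed binding protein of insulin-like growth factors (-1.74 ± 0.35, limma adjusted p 0.00168), of Pck1, an enzyme of glucose synthesis (-0.80 ± 0.21, 0.0174), and of Ppargc1a, a fasting-induced coactivator (-0.56 ± 0.16, 0.0252). In B6, Igfbp1 read 11.62 and 10.22 in replicates 3 and 4 and 8.87 to 9.06 in the others, while NZO ran from 7.63 to 8.51. Limma thus called 3 of the 11 genes against B6, where it called 10.3% of all tested genes. Of the 11 genes 6 had an unadjusted p under 0.05 against B6. The other 3 were glucocorticoid-responsive genes with higher means in NZO that did not pass: Fkbp5 (0.63 ± 0.21, limma adjusted p 0.0563), Zbtb16 (0.55 ± 0.22, 0.114) and Tsc22d3 (0.41 ± 0.16, 0.107). Not all genes of the list went that way. Tat had a lower mean in NZO (13.51) than in B6 (13.77), Sgk1 had close means (7.69 and 7.62), and neither passed. Ppargc1a was also lower than in 129P2 (-0.62, limma adjusted p 0.0138). Against C3H 0 of 11 passed limma's test, with 5 at an unadjusted p under 0.05, where 6.6% of all genes were called. None of the 11 passed for a slope on Arntl by limma, with 1 at an unadjusted p under 0.05. Their part in the clock gene differences was not tested. Of 29 cell type markers tested, 0 passed limma's test for a slope on Arntl, with 3 at an unadjusted p under 0.05; with 0.0775% of all genes called, a count of 0 says little of either list.

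Among all 14190 tested genes, ordered by r with Arntl over deviations from strain means, Dbp had the lowest r of all. Per3 stood 4th from the bottom, Bhlhe41 9th, Per1 26th, Per2 36th, Nr1d2 55th, Bhlhe40 108th and Nr1d1 455th. Outside the lists, the genes with the highest r were Clpx (0.87), which encodes a mitochondrial protease subunit, Chka (0.85), a choline kinase, Dtx4 (0.84), Arhgap24 (0.82), Ypel2 (0.81) and Serpinb6b (0.81). Those with the lowest were Kcnj16 (-0.78), a potassium channel, Slc5a6 (-0.78), a vitamin transporter, Pex26 (-0.78), a peroxisome assembly factor, Gna12 (-0.77), Ctif (-0.77) and Pip5kl1 (-0.77). Without the 2 animals farthest in Arntl, r stayed at 0.83 for Chka and 0.80 for Dtx4, and was 0.63 for Arhgap24 and -0.51 for Kcnj16. All these genes were read on the same 20 arrays, 1 per animal, and the values describe likeness only.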

How the data were processed

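Expression was measured in 20 livers on whole-transcript arrays. The deposited log2 values were made by the authors with Affymetrix Expression Console by RMA, per the submitters' processing notes, with versions and genome build not given in the sources used here. They were used as deposited. Of 35556 probe sets, the 21789 with 1 gene symbol in the platform annotation were used (1621 had several, 12146 none); of several probe sets for a gene, the one with the highest mean was taken. Genes entered the tests if 5 or more arrays held a value over that array's 40th percentile. Animals are numbered within strains in accession order.

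A limma model (limma 3.58.1, R 4.3.3) held 1 mean per strain and an intensity trend; p-values were adjusted by Benjamini-Hochberg over all tested genes. Slopes on Arntl or Dbp used the same fit with the anchor gene left out. Where all animals of a strain were under the 40th percentile, the fold is a bound: the brighter strain's mean against that percentile, averaged over the arrays of the dimmer strain. Pair correlations used deviations from strain means and 100000 permutations within strains in Python 3.11.15 (numpy 2.4.6, pandas 2.3.3, matplotlib 3.10.9). Scripts were tested on simulated data. The number of arrays limits the precision. Named genes were the clock genes, list members that passed a test, and the 6 genes each way most like Arntl (without olfactory receptors, gene segments, small RNAs, clones and predicted genes). Some list members that passed no test are named as well, picked by hand. Members and lists were chosen with earlier results of these data known. The alternatives tried are given with the closing observations.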

Additional observations from a re-analysis of the deposited data

Results flagged for a closer look

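Each clock gene was examined in each strain for an animal far from the other 4, in 36 groups, of which chance flags about 1 in 20. In 3 groups an animal stood apart. Arntl in NZO replicate 1 was 8.67, above the other NZO animals at 7.84 to 8.02. Arntl in 129P2 replicate 4 was 8.83, above the others at 7.35 to 7.77, and Per2 in the same animal was 7.55, below the others at 7.97 to 8.02. Both animals enter the slopes on Arntl, and the values without 129P2 replicate 4 stand beside those slopes in the report.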

How the results depend on the processing

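No called result turned its direction among the alternatives, while 44 values called under neither setting changed sign. The number of clock genes called in NZO minus B6 (1) was 2 with array weights, 3 with only the compared strains and 0 with Arntl as a covariate; in NZO minus C3H (3) it was 1 with robust moderation, 5 with only the compared strains and 0 with Arntl as a covariate. In NZO minus 129P2 (1) it was 2 with array weights and 0 with a filter at the 60th percentile, under which Bhlhe41 was not tested. In 129P2 minus B6 (0) it was 1 with Arntl as a covariate, and in C3H minus 129P2 (0) 1 with array weights or only the compared strains. Clock genes following Dbp (3) numbered 5 with array weights. Leaving out each animal gave 1 to 3, 1 to 4 and 1 to 3 calls in the NZO comparisons with B6, C3H and 129P2, 0 in C3H minus B6, 0 to 1 in the other 2, 2 to 5 by the F-test, 0 to 4 following Arntl and 1 to 4 following Dbp. Bhlhe41 in NZO minus 129P2 was called in all 31 alternatives that tested it. Arntl in NZO minus C3H was called in 20 of 31 and, besides single animals, was lost with equal array medians (limma adjusted p 0.0554), array weights (0.0534), robust moderation (0.0872) and without the 3 arrays of narrowest spread (0.0752). Nr1d1 in NZO minus B6 and in NZO minus C3H was called in 31 of 32 each, the exception being Arntl as a covariate. Per3 on Dbp was called in all 30, and Bhlhe41 on Arntl in 18 of 29. The causes were not tested. No paired analysis was made, because each strain held different animals with 1 array per animal. The labels give no replicate numbers. Signal over background limits Bhlhe41, which lay under the 40th percentile on 9 of 20 arrays.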

Other observations

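Several outputs of the clock varied within strains more than the clock genes themselves, without a difference past the threshold between NZO and B6. The SD within strains was 1.18 for Alas1, which encodes the first enzyme of heme synthesis, 0.76 for Cyp7a1, the rate-limiting enzyme of bile acid synthesis, and 0.75 for Lpin1, a phosphatidate phosphatase, against 0.67 for Dbp. The difference of NZO from B6 was -0.38 for Alas1, -0.24 for Cyp7a1 and -0.20 for Lpin1.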
